A study of Mus musculus with 9 samples.

Results

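Osteoblast-lineage cells were looked for among single cells sorted from adult mouse knees, and 52 of 4788 kept cells met the definition. A kept cell had at least 500 genes, at least 1000 unique molecular identifiers (UMIs, each standing for 1 captured mRNA molecule) and at most 10% mitochondrial UMIs. A member carried at least 1 UMI of at least 2 of the 4 bone genes *Ifitm5*, *Smpd3*, *Dmp1* and *Ibsp*, fewer than 3 of the 6 cartilage genes *Cytl1*, *Snorc*, *Chad*, *Hapln1*, *Matn3* and *Col9a2*, and no UMI of *Clic5*, *Ptprc* or *Pecam1*. These genes chose the cells, so their levels in the members are given as a description.

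All mice carried Gdf5-Cre, a Cre-dependent tdTomato reporter and Pdgfrα-H2BGFP, and were 11 to 12 weeks old. Gdf5-Cre is active in the embryonic joint interzone and leaves its descendants red, whatever they later become. Tom+ cells are therefore Gdf5-lineage, and Tom-GFP+ cells are cells outside that lineage that express the *Pdgfra* reporter. The steady-state knees gave 2 Tom+ libraries and 1 Tom-GFP+ library, and knees taken 6 days after a surface injury to the articular cartilage gave 4 Tom+ and 2 Tom-GFP+ libraries. The sort and the collagenase digest decide which cells were seen, so the number of members is not a count of bone cells in the knee. The labels number the libraries of a group without naming the mice. By the study's account the libraries of a group are separate mice, and Tom-GFP+ cells came from mice that also gave Tom+ cells. Which libraries share a mouse is not in the labels, so the comparisons of Tom+ with Tom-GFP+ treat them as independent.

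Osteoblasts build bone by secreting type I collagen and then mineralizing it. Runx2 and Sp7 are the transcription factors that commit a cell to this lineage, alkaline phosphatase (*Alpl*) frees the phosphate that mineral needs, and bone sialoprotein (*Ibsp*) and osteocalcin (*Bglap*) are matrix proteins of the mature cell. Some osteoblasts become buried as osteocytes, which make *Dmp1* and *Phex*, both regulators of phosphate and mineral.

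Because the promoters of bone genes are where Runx factors act, the 250 bases before the start of 3 genes that the results turn on are shown, with the hexamer ACCACA, the core of the Runx motif, in capitals on either strand. The sequences are from RefSeq, build GRCm38.p6, and are written 5′ to 3′ along each gene. The stretch for *Bglap* is chr3:88384467-88384716 on the minus strand, that for *Ibsp* is chr5:104299037-104299286 on the plus strand, and that for the second annotated start of *Dmp1* is chr5:104202367-104202616 on the plus strand.
Bglap: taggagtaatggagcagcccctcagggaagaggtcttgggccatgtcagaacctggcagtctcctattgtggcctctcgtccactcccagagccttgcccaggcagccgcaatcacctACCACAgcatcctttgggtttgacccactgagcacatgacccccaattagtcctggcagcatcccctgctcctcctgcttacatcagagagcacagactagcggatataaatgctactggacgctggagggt
Ibsp: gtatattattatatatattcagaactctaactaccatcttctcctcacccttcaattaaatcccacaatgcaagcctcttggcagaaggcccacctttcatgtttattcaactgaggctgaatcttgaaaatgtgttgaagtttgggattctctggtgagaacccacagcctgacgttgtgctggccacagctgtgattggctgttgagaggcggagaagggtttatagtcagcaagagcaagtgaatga
Dmp1: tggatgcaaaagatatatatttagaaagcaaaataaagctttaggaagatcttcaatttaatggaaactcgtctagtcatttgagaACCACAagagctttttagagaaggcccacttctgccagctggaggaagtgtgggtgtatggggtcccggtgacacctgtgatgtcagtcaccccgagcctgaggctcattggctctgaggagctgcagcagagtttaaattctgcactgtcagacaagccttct
The hexamer or its reverse complement TGTGGT was in the *Bglap* and *Dmp1* stretches and not in the *Ibsp* stretch, nor in the 250 bases before the other annotated start of *Dmp1*, which are not shown. It was in 4614 of 32851 stretches of the same length over all annotated starts, which is 14.0%. A match is a description of these letters and not a binding site.

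The members were unevenly spread over the libraries. Among Tom+ cells there were 4 members of 331 kept cells and 18 of 544 in the steady state, and 7 of 759, 12 of 826, 1 of 518 and 2 of 620 after injury. Among Tom-GFP+ cells there was 1 of 410 in the steady state, and 1 of 503 and 6 of 277 after injury. As shares of kept cells these were 1.21% and 3.31%, then 0.922%, 1.45%, 0.193% and 0.323%, and for Tom-GFP+ 0.244%, then 0.199% and 2.17%. The exact Clopper-Pearson 95% interval of the highest, the second Tom+ steady-state library, ran from 1.97% to 5.18%, and covers counting error only. The mean share was 2.26% ± 1.49 (SD, n = 2) in Tom+ steady-state and 0.723% ± 0.581 (SD, n = 4) in Tom+ injured libraries.

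**Figure D1:**
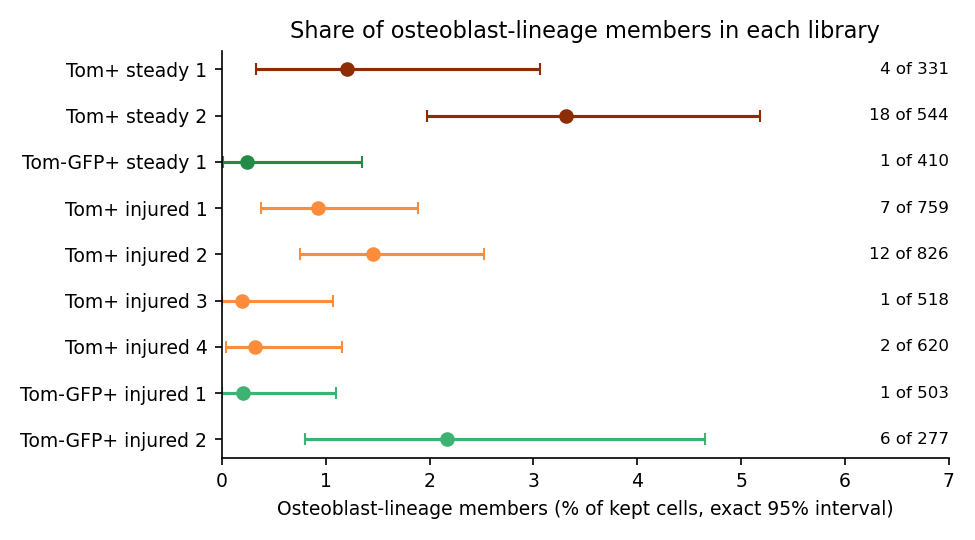
Share of osteoblast-lineage members among kept cells in each of the 9 libraries, in percent, with exact 95% binomial intervals and the counts at the right. The second Tom+ steady-state library lies highest at 3.31% and 4 libraries lie under 0.33%.

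The share of members did not separate the states. Injured minus steady state, averaged within lineage, was -0.711 percentage points (two-sided exact permutation test of libraries within lineage, p = 0.467, adjusted p = 0.861 over the 5 share tests), where the smallest p that these libraries allow is 0.0222. Within Tom+ alone the difference was -1.54 points (exact permutation p = 0.133, smallest possible p = 0.0667). In Tom-GFP+ the mean share went the other way, from 0.244% (n = 1) in the steady state to 1.18% (n = 2) after injury. Without the second Tom+ steady-state library the difference over both lineages was 0.162 points, opposite in direction to the -0.711 points. Tom+ minus Tom-GFP+ was 0.365 points (exact permutation p = 0.689, adjusted p = 0.861), and it was -0.460 points without the Tom-GFP+ steady-state library. Depth moved with the state: the median of kept cells was 8050.5 to 8647 UMIs in the steady-state libraries and 12223 to 18567 after injury. With every cell thinned to 3000 UMIs, 46 of 4621 cells met the definition, injured minus steady state was -0.741 points (exact permutation p = 0.178) and Tom+ minus Tom-GFP+ was 0.556 points (exact permutation p = 0.511).

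The label was checked on bone genes the rule did not use, and 46 of the 52 cells had *Alpl*, *Sp7* or *Bglap*. This check does not set the members apart from the cells barred for cartilage genes, which carried the same bone genes, and many of the 46 also had cartilage genes, as given below. *Col1a1*, a chain of type I collagen, had UMIs in all 52 members, and so also in the 6 that went against the label. *Alpl* had UMIs in 40, *Phospho1*, an enzyme of mineralization, in 37, *Bglap* in 36, *Bglap2* in 35, *Sp7* in 34 and *Runx2* in 30. Of the other bone genes set for this check, *Phex* was in 15 members. *Spp1* was in more members than *Phex* and fewer than *Runx2*, and *Mepe* was in the fewest. The 46 are the members with at least 2 *Ibsp* UMIs. The other 6, called doubtful below, went against the label. Each had exactly 1 *Ibsp* UMI, exactly 2 of the 4 bone genes with *Smpd3* as the other, and no UMI of *Alpl*, *Sp7*, *Bglap* or *Runx2*. All 6 had UMIs of both *Thy1* and *Cd34*, which mark sublining fibroblasts, against 1 of the 46. These 6 cells comprised the only Tom-GFP+ steady-state member, 3 of the 6 members of the second Tom-GFP+ injured library, 1 member of the second Tom+ steady-state library and 1 of the second Tom+ injured library. The split at 2 *Ibsp* UMIs was chosen after these values were seen. Some results that rest on the 6 cells are given with and without them, and levels by library include them unless stated. Every Tom-GFP+ steady-state level below is therefore that of a doubtful cell alone. Without them, injured minus steady state in the share of members was -0.769 points (exact permutation p = 0.289) and Tom+ minus Tom-GFP+ was 0.757 points (exact permutation p = 0.400).

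Bone genes were also counted in cells with a defining gene of blood, endothelium or lining. Over all kept cells, 80 of 4788 (1.67%) had at least 2 of the 4. None of 73 cells with *Ptprc* (CD45) had 2 of the 4, which allows a share of up to 4.11%, and 2 of 49 cells with *Pecam1*, a gene of endothelium, (4.08%) and 4 of 737 with *Clic5*, a gene of lining fibroblasts, (0.543%) did. Median depths were 8462, 11830 and 17401 UMIs in these 3 sets, and 8795.5 UMIs in the members.

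Cells just inside and just outside the definition were compared without a test. Of the members, 27 had 2 of the 4 bone genes, 18 had 3 and 7 had 4. Another 502 cells met every other criterion with only 1 bone gene, which was *Ibsp* in 313 of them and *Smpd3* in 164. The 313 had a median of 7 *Ibsp* UMIs, with *Alpl* in 42.2% and *Sp7* in 22.7%. The 164 had *Alpl* in 3.66% and *Sp7* in none. At the cartilage limit, 7 members had 2 of the 6 cartilage genes, and 22 cells with the bone genes were barred for having 3 or more. *Alpl* was detected in 18 of these 22 cells, *Sp7* in 16, *Sox9*, the transcription factor of chondrocytes, in 20 and *Col2a1*, the main collagen of cartilage, in 20.

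The cells barred by cartilage genes were 3 of 26 cells with the bone genes in the steady-state libraries and 19 of 48 in the injured ones. By library they were 0 of 4, 2 of 20 and, for Tom-GFP+, 1 of 2 in the steady state, and 3 of 10, 1 of 13, 2 of 3, 6 of 8 and, for Tom-GFP+, 4 of 5 and 3 of 9 after injury. The states overlapped. The rule's own genes set both parts of this share, so it is a description with no test. Over all 9 libraries the barred share was 28.8 percentage points higher after injury, and with the 3 libraries that held at least 10 such cells the difference was 8.85 points.

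The reporters followed the sort. *tdTom* stood at 799.5 and 588 CPM (UMIs of a gene per 1000000 UMIs summed over the members of a library) in the Tom+ steady-state members and at 590, 414, 153 and 105 CPM after injury. The 105 CPM of the last Tom+ injured library was 1 UMI. The Tom-GFP+ members had 0 CPM in the steady state and 76.3 and 18.6 CPM after injury, which was 1 UMI in each injured library. *H2BeGFP* was 619, 1297 and 1119 CPM in Tom-GFP+ members and no more than 143 CPM in any Tom+ library. *Gdf5* itself had no UMI in any member. *Pdgfra*, the receptor whose promoter drives the green reporter, had UMIs in 33 of 52 members.

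The bone genes themselves varied widely between libraries. *Ibsp* was 5122 and 6437 CPM in Tom+ steady-state members and 35806, 11694, 2141 and 11666 CPM after injury, while the Tom-GFP+ members had 103, 2595 and 6527 CPM. *Ifitm5*, a membrane protein of mineralizing osteoblasts, ranged from 0 to 1070 CPM, and *Smpd3*, a sphingomyelinase needed for mineralization, from 131 to 561 CPM. *Alpl* was 1799 and 2260 CPM in Tom+ steady-state members and 1008, 631, 408 and 2207 CPM after injury. *Sp7* was 99.9 and 353 CPM in the former and 283, 81.6, 51.0 and 210 CPM in the latter. In the libraries with 1 or 2 members a single UMI was worth 51.0 to 105 CPM, so their values are coarse.

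Against the other stromal cells, which are all kept cells without *Ptprc* or *Pecam1* that were not members, the members were compared as a description, since the cells were chosen by bone genes. Beside *Dmp1* and *Ifitm5* of the rule, the genes with the highest ratios were *Ccdc194* (716 times), *Dkk1*, *Ptprz1*, *Col13a1*, a transmembrane collagen (171 times), and *Bglap*. Over all libraries *Bglap* was 166 times the level in the other cells, *Bglap2* 60.4 times, *Bglap3* 56.0 times and *Ptprz1*, a receptor phosphatase, 174 times. Of the 6586 *Bglap* UMIs in the members, single cells held 1745, 1739 and 1714, and the median member had 6.5. *Dkk1*, a secreted Wnt inhibitor, was 258 times the level in the other cells. It was 125 CPM over all members and 455 CPM in the first Tom+ injured library. *Phospho1* was 38.4 times higher and *Panx3*, a channel of osteoblasts and late chondrocytes, 24.8 times. *Ptprz1*, *Phospho1* and *Alpl* were higher in the members in all 5 libraries with at least 4 members, *Bglap*, *Bglap2* and *Bglap3* in 4 of the 5, and *Dkk1* and *Panx3* in 3 of the 5. *Bglap*, *Bglap2* and *Bglap3* lie side by side and share sequence: of the 410 words of 31 bases in the *Bglap* transcript, 330 are also in *Bglap2* and 156 in *Bglap3*, so reads could be split between them.

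Osteocalcin differed widely among the members. *Bglap* was 1349 and 6495 CPM in Tom+ steady-state members, then 6787, 16.3, 87369 and 315 CPM after injury, and 0, 133176 and 32488 CPM in Tom-GFP+ libraries. The 12 members of the second Tom+ injured library held 3 *Bglap* UMIs together, beside 2149 of *Ibsp*, while the single member of the third held 1714. Members of 1 library also differed. In the second Tom+ steady-state library, without the doubtful cell, the sum of *Bglap* and *Bglap2* ran from 0 to 1038 UMIs per 10000 around a median of 90.5.

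After injury, low osteocalcin went with *Sox9*, which is given as a description. Among the 46 members without the 6 doubtful cells, *Sox9* was detected in 5 of 21 in the steady state and in 17 of 25 after injury. After injury the 17 with *Sox9* had a median of 0.693 UMIs of *Bglap* plus *Bglap2* per 10000, and 15 of them had *Acan*, the proteoglycan of cartilage. The 8 without *Sox9* had a median of 328 per 10000, and 2 had *Acan*. In the steady state the medians were 40.8 and 83.3 per 10000, and *Acan* was found in 1 of the 21. Of the 17 cells with *Sox9* after injury, 11 came from the second Tom+ injured library, where every one of the 11 had it. Without that library, *Sox9* was in 6 of 14 injured members. The osteocalcin median of the cells with *Sox9* was 0 per 10000 in that library. It was 4.91 and 5.73 in the first and last Tom+ injured libraries and 2.07 in the second Tom-GFP+ one. *Col10a1*, the collagen of hypertrophic chondrocytes, had no UMI in any of the 52 members. Median depths were 11381 UMIs with *Sox9* and 9489 without after injury, and a part of depth or of 2 cells in 1 droplet was not tested.

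**Figure D2:**
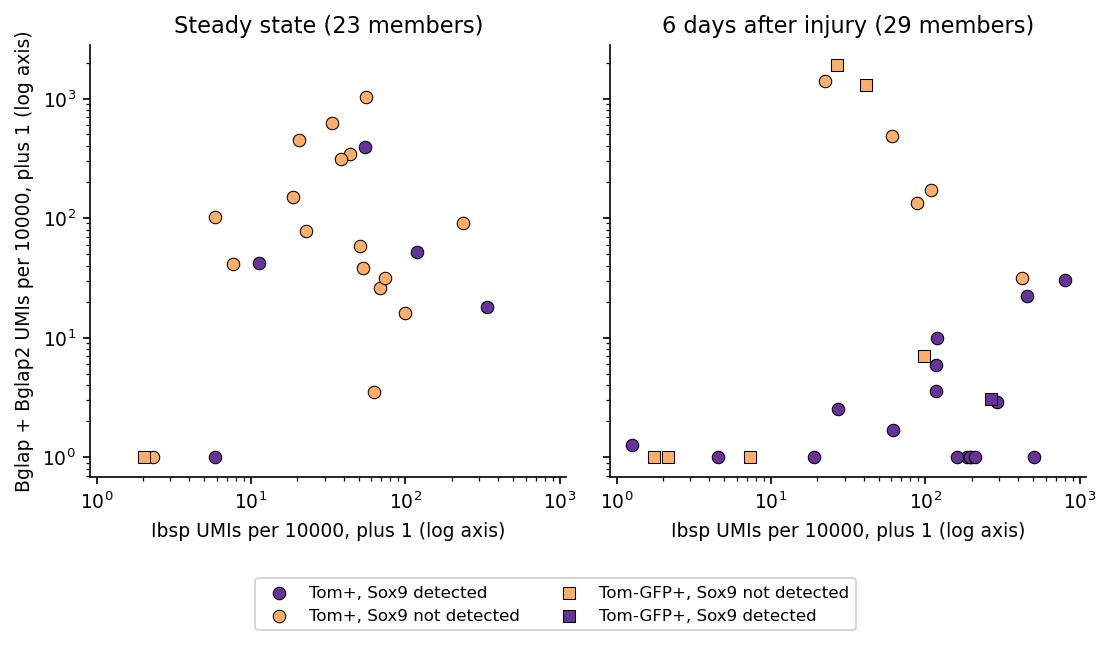
*Ibsp* against *Bglap* plus *Bglap2* in each of the 52 members, both in UMIs per 10000 plus 1 on log axes, in the steady state at the left and 6 days after injury at the right. Circles are Tom+ and squares Tom-GFP+ cells, and colour shows whether *Sox9* was detected. After injury the cells with *Sox9* lie low on the osteocalcin axis, most of them from the second Tom+ injured library.

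Between steady state and injury, 13 of 1961 genes tested in Tom+ members passed an adjusted p of 0.05 (0.663% of genes tested). The fit used the UMIs of members summed in each library, edgeR's quasi-likelihood test and Benjamini-Hochberg adjustment, with the 5 libraries that held at least 4 members. The comparison is 2 Tom+ steady-state libraries (22 members) against 2 Tom+ injured libraries (19 members). 8 genes were higher after injury and 5 lower. The count depended on single libraries. Leaving out either steady-state library or adding the replicate number as a block left no gene past the threshold, and leaving out either injured library gave 173 and 157. The 3 steady-state libraries and the first Tom+ injured one list their genes in an older format than the other 5, and with that format as a block 152 genes passed. With the doubtful cells left out 18 genes passed, among them all 13.

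Of the 8 genes higher after injury, 2 were on the cartilage list (*Col2a1* and *Acan*) and 2 on the wound matrix list (*Cthrc1* and *Col12a1*). *Col2a1* had 0 and 1 UMIs in the 2 steady-state libraries and 138 and 168 after injury, a ratio of CPM of 184 with a counting interval of 32.7 to 7274 (log2 fold change 7.59 ± 0.77 SE, edgeR adjusted p = 0.0137). *Acan* had 0 and 2 against 67 and 124 UMIs, a ratio of 57.3 with an interval of 15.6 to 476 (edgeR adjusted p = 0.0137). *Col11a2*, a chain of a collagen that cartilage and bone share, had 0 and 2 against 159 and 96 UMIs, a ratio of 76.5 with an interval of 21.0 to 635 (edgeR adjusted p = 0.0405). The *Col2a1* UMIs came mostly from few cells near the cartilage limit of the rule. Of the 306 *Col2a1* UMIs after injury, 248 (81.0%) were in 4 of the 6 members with 2 of the cartilage genes, 45 were in the doubtful cell, and 7 of the 19 members had any. Of the 191 *Acan* UMIs, 128 were in those 6 members, and 14 of the 19 members had any, so that *Acan* was spread over more cells. The rule bars cells with 3 or more cartilage genes in every library, so the members are not free to vary in cartilage content.

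*Cthrc1*, a secreted protein of wound fibroblasts, was 25.0 and 16.8 CPM before and 602 and 1154 CPM after injury (log2 fold change 5.57 ± 0.59 SE, edgeR adjusted p = 0.0137). *Col12a1*, a collagen that binds fibrils together, rose from 75.0 and 50.4 CPM to 701 and 822 CPM, and *Tnn*, the matrix protein tenascin-W, from 50.0 and 84.0 CPM to 566 and 620 CPM. *Ndufa4l2* rose from 25.0 and 42.0 CPM to 418 and 560 CPM, and *Ackr3*, a chemokine receptor, from 25.0 and 16.8 CPM to 381 and 256 CPM. In the other stromal cells of the same libraries *Cthrc1* was 53.7 and 80.1 CPM before and 3266 and 1719 CPM after, so that it was higher after injury there too.

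Among the lower genes, *Penk*, the precursor of enkephalin, had 19 and 39 UMIs before injury and none in either injured library, which is at least 32.2-fold lower when 3 UMIs are allowed over the 2 injured libraries (edgeR adjusted p = 0.0216). *Gdf10*, a member of the BMP family, had 28 and 51 UMIs before and 0 and 1 after, a ratio 132 times lower with a counting interval of 23.0 to 5266. *Dlx5*, a homeobox factor of osteoblasts, was 350 and 378 CPM before and 12.3 and 32.6 CPM after. *Cst3*, a protease inhibitor, fell from 41825 and 36527 CPM to 2963 and 2639 CPM, and *Gsn*, an actin-severing protein, from 6621 and 8999 CPM to 553 and 528 CPM. *Gsn* was 12198 and 16190 CPM before and 579 and 1394 CPM after in the other stromal cells, and *Penk* 356 and 502 CPM before and 9.25 and 13.1 CPM after. In these 4 libraries both genes were lower after injury in the other cells as well. Of the genes past the threshold in the members, only *Col2a1*, *Acan* and *Col11a2* also passed the test of members against other stromal cells given below. The lack of a call for the others does not show that they changed alike in both.

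**Figure D3:**
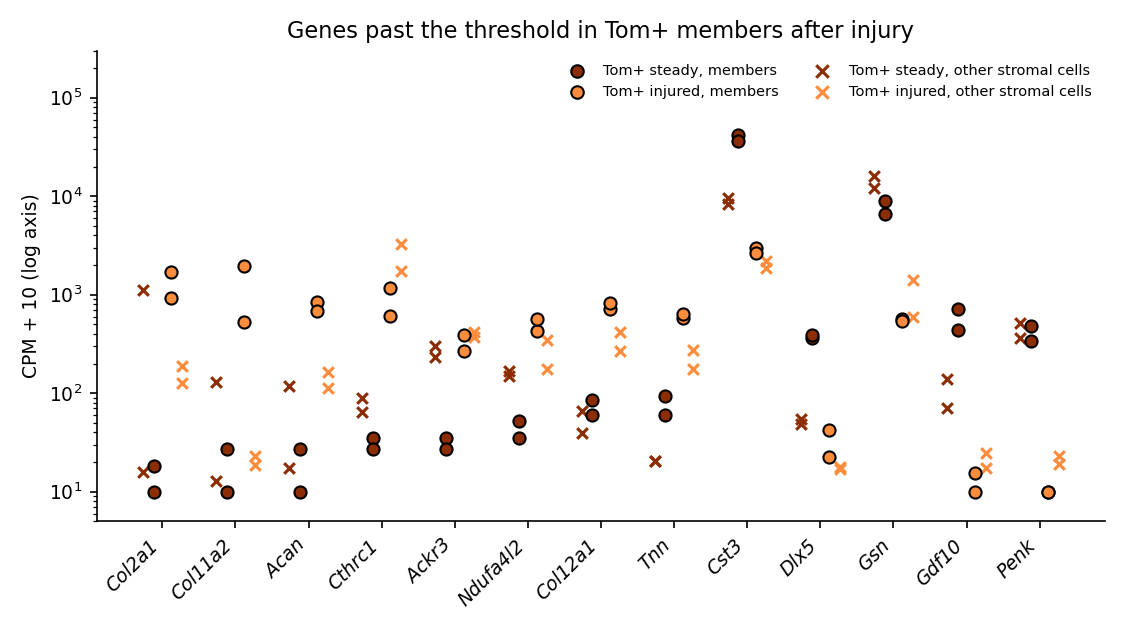
Levels, in CPM plus 10 on a log axis, of the 13 genes past the threshold in Tom+ members. Filled circles are members and crosses the other stromal cells of the same 4 libraries, 2 steady-state and 2 injured. From the left, the first 8 genes are higher in the injured members and the last 5 lower, and since the test on these same libraries chose the genes, that the states lie apart is no further result.

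By list, the calls were few, and over all genes tested they were 13 of 1961 (0.663%). Of 22 genes of bone matrix and mineral tested, 1 was higher (*Col11a2*) and none lower, with a median log2 fold change of 0.87 against -0.0023 over all genes tested. Of 8 bone transcription factors, 1 was lower (*Dlx5*), with a median of 0.01. Of 6 cartilage genes 2 were higher (*Col2a1* and *Acan*), with a median of 2.77. The summed level of the 17 genes on that list overlapped between states, at 3073 and 6747 CPM before and 5349 and 5599 CPM after injury. *Comp* was the most abundant of them before, at 1549 and 6050 CPM, and stood at 1643 CPM in the second injured library. Of 20 wound matrix genes 2 were higher (*Cthrc1* and *Col12a1*), with a median of 1.17, and of 12 genes of the BMP and TGF-beta families 1 was lower (*Gdf10*), with a median of 0.32. Of 11 osteocyte genes 1 was higher (*Ackr3*), with a median of 1.57. None passed among 17 genes of collagen processing, 16 of the secretory pathway, 7 of the Wnt family, 5 of osteoclast coupling, 12 hormone and growth factor genes, 8 of glycolysis or 2 of the cell cycle. *Col1a1* was 4123 and 10579 CPM before and 76259 and 41579 CPM after injury (log2 fold change 3.17 ± 0.74 SE, edgeR adjusted p = 0.123), and *Bglap* differed by -0.02 ± 1.68 SE on the log2 scale (edgeR adjusted p = 0.999). None of 18 genes of the tissue dissociation response passed, with a median of -1.11, and their summed level was 20038 and 13344 CPM before and 5017 and 6323 CPM after. Their part in the other values was not tested.

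Markers of other cell types differed in level among the members. The summed level of 6 endothelial genes was at most 16.8 CPM in the Tom+ libraries, with *Tek* the only one detected and *Cdh5* at 0, and that of 5 erythroid genes was 0. The 14 immune and osteoclast genes summed to 350 and 420 CPM before and 197 and 637 CPM after injury in the 4 Tom+ libraries compared, with *Ctsk* the most abundant in 3 of them and *Acp5* in the fourth. The 6 lining genes summed to 1399 and 277 CPM before and 295 and 1725 CPM after, and the 8 sublining genes to 300 and 1882 CPM before and 86.1 and 463 CPM after. The second Tom+ library of each state held 1 doubtful cell, which these sums include. Of the 75 *Cd34* UMIs in the 52 members, 74 were in the 6 doubtful cells. *Prg4*, lubricin of lining cells, was 1491 CPM in the second Tom+ injured library and 144 CPM without its doubtful cell. In Tom-GFP+ members the sublining genes summed to 32068 CPM in the steady-state cell, and to 76.3 and 4588 CPM in the first and second injured libraries. The other stromal cells there had 10368, 5102 and 6064 CPM. The steady-state cell and 3 of the 6 members of the second injured library are doubtful cells, and these sums include them. The 7 tenocyte genes summed to 949 and 1689 CPM before and 1808 and 2041 CPM after in Tom+ members, with *Thbs4* or *Fmod* the most abundant, and to 354, 1130, 813 and 633 CPM in the other stromal cells of the same libraries, where they were lower. In the third Tom+ injured library they were 153 CPM in the member and 284 CPM in the other cells, in the last Tom+ injured library 1892 and 327 CPM, and in the Tom-GFP+ libraries at most 18.6 CPM in members and at least 480 CPM in the other cells. The 7 mural genes summed to at most 196 CPM. Their part in the differences was not tested.

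Whether the injury response of the members differed from that of the other stromal cells was tested in the 6 Tom+ libraries, with library as a block. No minimum of members applied in this fit, so the third and last Tom+ injured libraries entered with 1 and 2 members. The difference passed for 19 of 10915 genes (0.174%), all with a more positive change in the members, and with DESeq2 for 1 gene, *Acan*. Without the second Tom+ injured library the change was more positive for 13 genes and less positive for 9. With another scaling of the libraries (RLE size factors) these counts were 34 and 3. Without the doubtful cells 18 genes passed, 15 of them among the 19. *Phex* had the smallest adjusted p (log2 difference 5.67 ± 0.84 SE, edgeR adjusted p = 1.98e-07). Over all libraries and without the doubtful cells, 11 of the 12 members with *Phex* also had *Dmp1*, a gene of the rule. The choice of members therefore bears on the *Phex* level, and its p is not free of the rule. *Phex* was 0 and 42.0 CPM in the members before injury and 713, 190, 0 and 0 CPM after, while the other cells had 12.9 and 6.33 CPM before and 0.945, 1.21, 1.77 and 2.55 CPM after. *Phex* passed in 12 of 14 alternatives. The high *Phex* members were few, as described below for late cells.

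*Col2a1* (7.86), *Acan* (5.21) and *Col11a1* (4.76), all log2 differences, were the genes of the cartilage list among the 19, and *Col11a2* (8.25) and *Panx3* (5.25) those of the bone matrix list. *Col2a1* was 1118 CPM in the other cells of the second Tom+ steady-state library and 5.73 CPM in those of the first, so the level there rested on 1 library. *Ptprz1* (4.68), *Bmp4* (4.88), a bone morphogenetic protein, and *Wif1* (3.53), a secreted Wnt inhibitor, were others. *Hpgd*, which breaks down prostaglandins, differed by 4.53 and *Cox4i2*, a subunit of a mitochondrial enzyme, by 5.28. *Bmp4* was 47.3 and 67.2 CPM in the other cells before injury and between 6.17 and 13.2 CPM after. *Cilp* (12.57) rested on 23 UMIs of 1 library and was at 0 in the members without the doubtful cells. By list, 3 of 16 cartilage genes, 2 of 24 bone matrix genes and 2 of 12 osteocyte genes passed. So did 1 of 20 Wnt genes, 1 of 24 BMP and TGF-beta genes and 1 of 22 wound matrix genes. None passed among 16 bone transcription factors, 20 genes of collagen processing, 17 of the secretory pathway or 16 of osteoclast coupling. Nor did any of 22 hormone and growth factor genes, 16 of the cell cycle, 14 of glycolysis or 18 of dissociation. Over all genes tested, 19 of 10915 (0.174%) passed. The count was 10 and 3 without the first and the second Tom+ steady-state library, and 9 without the first Tom+ injured one.

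Tom+ and Tom-GFP+ members after injury were compared with 2 libraries against 1, and 6 of 1961 genes passed (0.306%), 3 higher in Tom+ and 3 lower. The single Tom-GFP+ library, where 3 of the 6 members are doubtful, was assumed to vary like the Tom+ libraries, and the libraries were treated as independent although the sorts share mice. With no minimum of members, which brings in the other libraries, 2 of 1351 genes passed, and *Cebpd* was the only gene named here among them. *Sfrp2* and *Sfrp4*, secreted Wnt modulators, and *Cebpd* were lower in Tom+. *Sfrp2* had no UMI in either Tom+ library against 41 in the Tom-GFP+ library, and none of the 41 was left without its 3 doubtful cells. *Sfrp4* was 3506 CPM in that library and 66.2 CPM without them, and *Cebpd* 951 and 166 CPM. *Fmod*, *Col12a1* and *Tnc*, matrix proteins of tendon and wound, were higher in Tom+ with *Fmod* at 119 and 346 UMIs against 0. No fit was run without the doubtful cells, since the 3 members left in the Tom-GFP+ library were under the chosen minimum of 4. The Tom+ steady-state libraries share in the estimate of spread, and the genes that the fit picked changed on leaving out any of its Tom+ libraries. The injury response of Tom-GFP+ members was not fitted, because the steady-state library held 1 member, a doubtful one.

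By the UMI sums used here, early-biased members outnumbered late-biased ones. A member was called early-biased when its UMIs of *Alpl* plus *Sp7* exceeded those of *Dmp1* plus *Phex*, and late-biased in the opposite case. There were 38 early-biased members, 10 late-biased and 4 with equal counts, and 8 members lay within 1 UMI of the limit. Without the 6 doubtful cells there were 38, 7 and 1. In the 46, *Dmp1* was detected in 16 and *Phex* in 12, 11 of them the same cells, and 16 of the 17 with either also had *Alpl* or *Sp7*. Those with either were 4 of 21 in the steady state and 13 of 25 after injury. If any UMI of *Dmp1* or *Phex* made a cell late, late cells were therefore not the fewer after injury. The 3 cells with over 70 late UMIs were all from injured Tom+ libraries, 2 in the first and 1 in the second. *Dmp1* in the 2 states therefore rested on a handful of cells: 0 and 22 UMIs before and 192 and 207 after.

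Libraries with at least 4 classed members entered the comparison of late-biased shares, which is a description with no test because *Dmp1* is 1 of the 4 bone genes of the rule. The share of classed members was 0% and 12.5% for Tom+ cells at steady state. After injury it was 28.6% and 9.09% in the first 2 Tom+ libraries, and 66.7% in the second Tom-GFP+ library, or 33.3% without its doubtful cells. The groups overlapped. Of the injured libraries below the minimum, the other 2 Tom+ ones had 0% of 1 and 2 members and the first Tom-GFP+ one had 100% of 1 member. Injured minus steady state, which rests on Tom+ libraries alone, was 12.6 percentage points. It was 3.17 points with no minimum and 39.4 points when any UMI of *Dmp1* or *Phex* made a cell late. With at least 3 of the 4 bone genes required, it was -16.2 points, in the other direction. Tom+ minus Tom-GFP+ was -47.8 points, with a single Tom-GFP+ library, and -73.9 points with no minimum. Both differences use the 66.7% that includes the doubtful cells rather than the 33.3%, and neither was computed without them.

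**Figure D4:**
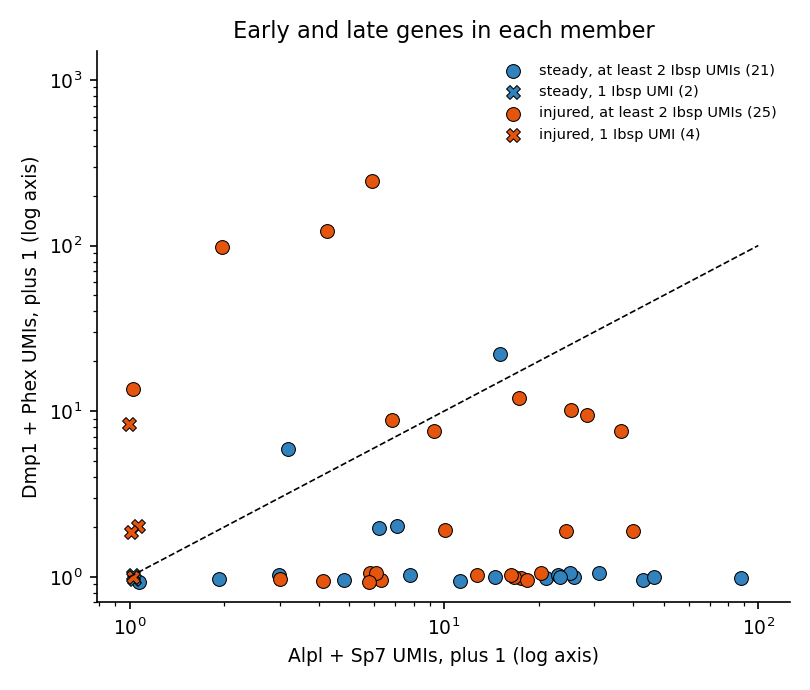
UMIs of *Alpl* plus *Sp7* against UMIs of *Dmp1* plus *Phex* in each of the 52 members, plus 1 on log axes with a small random shift, and with colour for the state. Crosses are the 6 doubtful cells and the dashed line marks equal counts. The 3 cells with over 70 late UMIs are all from injured knees.

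Osteocyte genes that the split did not use went both ways. Without the doubtful cells, 10 of the 14 other genes of the osteocyte list had a higher CPM in the late-biased cells, 3 had a higher CPM in the early-biased cells and 1 had no UMI. That is 76.9% of the 13 with a UMI, against 35.0% of 12682 genes with a UMI in either class and 40.8% of the 4987 with at least 10. The CPM was pooled over libraries, and 5 of the 7 late-biased and 20 of the 38 early-biased cells came from injured knees, so class and state are mixed in it. *Pdpn*, a membrane protein of early osteocytes, had 69 UMIs in 5 of 7 late-biased cells and 4 UMIs in 4 of 38 early-biased cells. *Dkk1* had 53 UMIs in 5 of the 7 and 13 in 3 of the 38. *Sost*, the Wnt inhibitor of mature osteocytes, had 3 UMIs, in 2 late-biased cells and in no early one. *Mepe*, a matrix protein of osteocytes, had 3 UMIs in the late and 1 in the early cells. *Capg*, an actin-capping protein, was 207 CPM in the early and 15.7 CPM in the late cells, *Cdh11*, a cadherin of osteoblasts, 144 and 62.9 CPM, and *Tnfrsf11b*, the decoy receptor osteoprotegerin, 84.0 and 78.6 CPM. The early-biased cells carried *Mgp*, an inhibitor of mineralization, with 93 UMIs in 14 of 38 cells and none in the 7, *Panx3* with 48 UMIs in 10 of 38 and none in the 7, and *Tmem119* in 30 of 38 against 2 of 7. *Acan* was detected in 18 of the 38 and in none of the 7. *Bglap* was 11567 CPM in the early and 33721 CPM in the late cells, where 1745 of its 2145 UMIs were in the single member of the first Tom-GFP+ injured library.

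In the 3 libraries with at least 2 members of each class, none of 318 genes passed the test between the classes (0% called; edgeR quasi-likelihood test with library as a block, 10 genes at an unadjusted p under 0.05, and 1 gene with DESeq2). *Pdpn*, *Dkk1*, *Sost* and *Mepe* were not among the 318. That fit includes 3 doubtful late-biased cells of the second Tom-GFP+ injured library. Without the doubtful cells 2 libraries were left, and edgeR called none of 627 genes, with 65 at an unadjusted p under 0.05 and a smallest adjusted p of 0.0984.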

How the data were processed

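Single cells sorted from mouse knees were captured with a 10x 5′ kit. The deposited values are UMI counts per gene and cell, made by the authors with Cell Ranger (GRCm38.p6, version 3.0.2 in the headers of 5 matrices) and not normalized. Total UMIs per library ranged from 2866464 to 15033902. Kept cells had at least 500 genes, 1000 UMIs and at most 10% mitochondrial UMIs. No 2 libraries shared more than 2 barcodes and no member was among them. Scrublet called no member a doublet.

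Members' counts were summed per library and tested with edgeR 4.0.16 (quasi-likelihood, Benjamini-Hochberg), with DESeq2 1.42.0 as an alternative. Shares of members were compared by exact permutation of libraries, in a family of 5 share tests; late-biased and barred shares are given without their p because they use genes of the rule. The code was tested on simulated data. The members and all 22 gene lists were chosen with earlier results of these data known. The planned minimum of 10 members per library was lowered to 4, that of 10 classed members for the late-biased share to 4, and that of 5 per early or late class to 2, after the counts were seen. The fit of members against other stromal cells had no minimum. Named genes were up to 10 per direction past the threshold with at least 50 CPM, up to 4 called genes per list or 2 where none passed, and the 20 highest against other stromal cells.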

Additional observations from a re-analysis of the deposited data

Results flagged for a closer look

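In the third Tom+ injured library, which held 1 member, *Bglap* was 87369 CPM and *Bglap2* 52707 CPM, far from the other 3 Tom+ injured libraries. Of 19 such checks of a single library against its group, 2 passed the limit, and chance passes about 1 in 20.

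The injury response differed between members and other stromal cells of Tom+ libraries for 19 genes by an interaction term. The log2 differences were 7.86 for *Col2a1*, 5.21 for *Acan* and 4.76 for *Col11a1*, of the cartilage list, and 8.25 for *Col11a2* and 5.25 for *Panx3*, of the bone matrix list. They were 5.67 for *Phex* and 4.68 for *Ptprz1*, of the osteocyte list. They were 4.88 for *Bmp4*, 3.53 for *Wif1*, 4.53 for *Hpgd* and 5.28 for *Cox4i2*. *Cilp* had 12.57, from the 23 UMIs of 1 doubtful cell.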

How the results depend on the processing

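Counts of genes past the threshold moved with most settings, and the cause was not tested. For injury in Tom+ members (13 genes) the count was 26 with DESeq2, 123 with no filter on low counts, 54 with at least 3 bone genes, 41 without the highest 5% of doublet scores, 7 with cells thinned to 3000 UMIs, 152 with gene list format as a block, and 0 to 173 on leaving out 1 library. For Tom+ against Tom-GFP+ (6) it was 10, 60, 32 and 111 with DESeq2, no filter, the doublet limit and the format block, 2 with no minimum of members, and 0 to 119 on leaving out 1 library. For members against other cells (19) it was 37 with RLE size factors, 1 with DESeq2, 5 thinned, 33 with at least 4 members per library, and 3 to 23 on leaving out 1 library. For late against early (0) it was 1 with DESeq2 and 3 with no filter.

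With the replicate number as a block the count was 0 for injury. The labels do not pair the libraries, and same-numbered libraries deviated with r = -0.145 over 1967 genes. The crossed pairing gave 39 for injury.

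On leaving out 1 library the difference in member share ran from -1.54 to 0.162 points for state and from -0.460 to 1.20 for lineage, where it also reversed to -0.0713. The late-biased difference reversed to -16.2 points with at least 3 bone genes, and the barred difference to -2.31 with the stricter cell filter and without the first Tom+ injured library, and it was 20 without the second. For 31 values of named genes, 328 alternatives kept the side of the threshold, 130 lost it and 0 reversed. The Tom-GFP+ injury response was not run.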
